A study of Homo sapiens with 12 samples.

Results

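RNA sequencing of 2 uterine leiomyosarcoma (uLMS) cell lines was used to follow 10 genes that mark the epithelial or the mesenchymal state of a cell. They are CDH1, EPCAM, ESRP1, and GRHL2 on the epithelial side and CDH2, VIM, ZEB1, ZEB2, SNAI2, and TWIST1 on the mesenchymal side. Each was found by its exact symbol, so these are 10 of the 60649 genes of the count table, and 8 of the 10 passed the filter on low counts that left 21114 genes for testing. CDH1 and GRHL2 did not pass it. The members are set by name, without a threshold on a measured value, and were chosen with earlier results of these data known.

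Epithelial cells hold to each other through E-cadherin and desmosomes, while mesenchymal cells carry N-cadherin and vimentin and move more freely. Transcription factors of the ZEB, SNAI, and TWIST families repress epithelial genes, and GRHL2 and the splicing factor ESRP1 act in the other direction. Smooth muscle, the tissue that leiomyosarcoma resembles, is mesenchymal.

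The study asked how a gamma secretase inhibitor, MK-0752, and chemotherapy act on uLMS cells. SK-UT-1B is a primary uLMS line described as epithelial-like in shape, and SK-LMS-1 came from a vulvar metastasis. Both are established lines, and each stands for 1 tumor. All cells were harvested after 72 h. SK-UT-1B had 2 libraries after the vehicle DMSO (4-1 and 4-2) and 2 after MK-0752 with gemcitabine and docetaxel (3-1 and 3-3). SK-LMS-1 had 4 libraries after DMSO (2-1, 2-3, 4-1, and 4-2), 2 after MK-0752 alone (2-2 and 2-3), and 2 after the same combination (4-1 and 4-2). Drug concentrations were set at the IC30 of each line, so the lines did not receive equal amounts, and MK-0752 was more dilute in the combination than alone. SK-UT-1B has no libraries after MK-0752 alone. What the library numbers stand for is not stated, and in SK-UT-1B the first number differs between the treatments, so that a difference between these library sets cannot be told apart from the combination. Nothing states that the libraries of a group came from separate cultures, and p-values then measure only the spread between these libraries.

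Library totals ranged from 25250057 to 40709885 counts. Levels are given as CPM, counts scaled to library size with trimmed mean (TMM) factors, on which 3 counts equal 0.0777 to 0.123 CPM. Coverage of weakly expressed genes was uneven. Of the genes expected at 5 to 500 counts from the other libraries of the line, 17.1% to 34.4% had 0 counts in a given library, so a single 0 at that level carries little weight. Of the smooth muscle markers, CALD1, an actin-binding protein, was at 352 ± 26.2 CPM in SK-LMS-1 (SD, n = 4) and 45.7 ± 1.42 CPM in SK-UT-1B (SD, n = 2) after DMSO. ACTA2, smooth muscle actin, was at 18.1 ± 3.54 and 3.34 ± 0.12 CPM. Several defining markers were low. MYH11, smooth muscle myosin, did not exceed 5 counts in any library, MYOCD, the smooth muscle coactivator, did not exceed 36, and DES, desmin, had 0 counts in all 8 SK-LMS-1 libraries and 50 to 282 counts in SK-UT-1B.

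Neither line expressed the epithelial genes beyond traces. CDH1 encodes E-cadherin, the adhesion protein of epithelial junctions (chr16:68737292-68835537, hg38). It had 3 counts in SK-UT-1B DMSO library 4-2 and 0 counts in the other 11 libraries. GRHL2, a transcription factor that maintains epithelial genes (chr8:101492439-101669726), had 0 counts in all 12 libraries. A count of 0 allows up to 3 counts, or at most 0.123 CPM, in counting error alone.

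EPCAM encodes a surface adhesion protein of epithelial cells (chr2:47345158-47387601). It had 29 counts in SK-LMS-1 DMSO library 4-2 and 0 counts in the other 3 DMSO libraries. After MK-0752 it had 37 and 8 counts, and after the combination 13 and 0 counts. All 4 SK-UT-1B libraries had 0 counts. EPCAM reads were therefore seen only in SK-LMS-1 libraries, at 1.04 CPM or less. The MK-0752 libraries did not overlap their DMSO libraries 2-1 and 2-3, both at 0, but they overlapped the 4 DMSO libraries together, and the combination libraries overlapped theirs. In such bulk libraries, fewer cells with a transcript and less of it per cell cannot be told apart.

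ESRP1, the splicing factor of epithelial transcripts (chr8:94641074-94707466), was at trace levels on the other side. SK-UT-1B had 7 and 13 counts after DMSO and 91 and 0 counts after the combination. SK-LMS-1 had 9 counts in combination library 4-1 and 0 counts in its other 7 libraries. Library 3-1, with the 91 counts, was the highest at 2.49 CPM, while the second library of that treatment had none. Neither EPCAM nor ESRP1 was called different between lines or treatments in any comparison. No fold change is given for these traces.

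**Figure D1:**
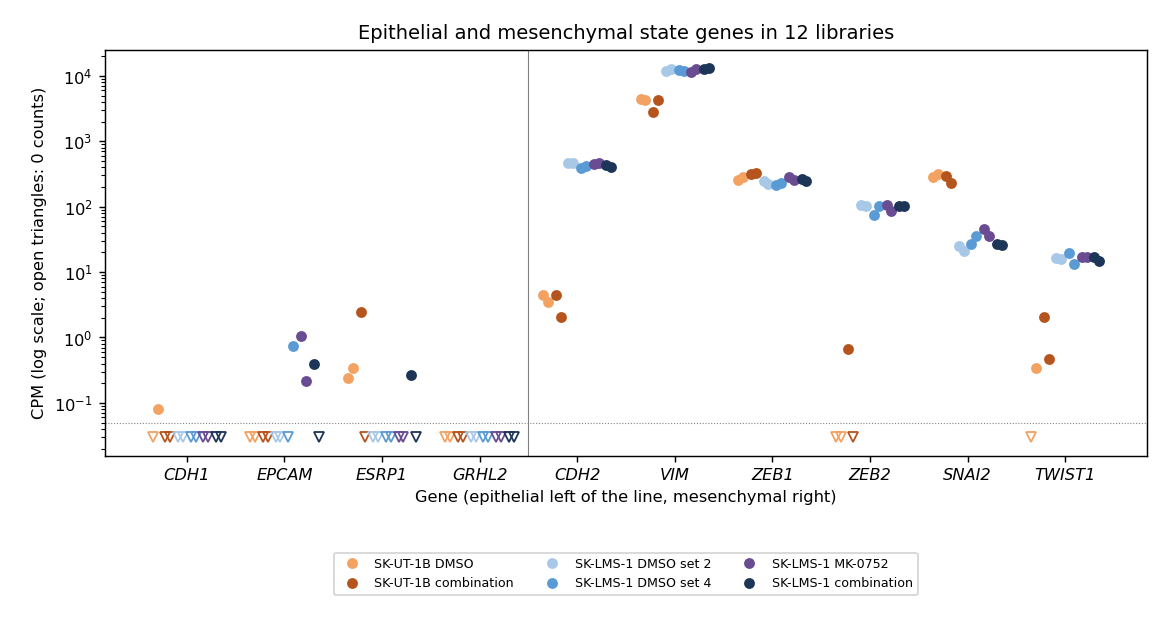
CPM on a log axis for each of the 10 genes in 12 libraries, with a point per library colored by line and treatment and open triangles for 0 counts. The epithelial genes lie at or below 2.49 CPM in every library, while CDH2 and ZEB2 separate the lines and ZEB1 does not.

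The mesenchymal genes divided the lines. After DMSO, CDH2, VIM, ZEB2, and TWIST1 were higher in SK-LMS-1, SNAI2 was lower, and ZEB1 was not called. Genes were called at an absolute log2 fold change (log2FC) of at least 1 with a Benjamini-Hochberg adjusted p under 0.05 in edgeR's quasi-likelihood test. By this rule 4 of the 10 genes were higher in SK-LMS-1 and 1 was lower, which is 5 of the 8 tested, where 31.1% of all tested genes were called in either direction, 17.0% higher and 14.1% lower. The median log2FC of the 8 genes was 1.26 with the 3 genes at or under 3 counts in every DMSO library of a line (EPCAM, ESRP1, and ZEB2) set to the bound that 3 counts give, 2.40 with their fitted values, and 0 over all genes tested. After the combination the same genes passed in the same directions, against a background of 25.4% called, 15.6% higher and 9.88% lower. The comparisons after DMSO and after the combination use different libraries. After the combination the first library number is 4 in SK-LMS-1 and 3 in SK-UT-1B. A difference between these library sets cannot be told apart from the lines there.

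CDH2 encodes N-cadherin, the adhesion protein of mesenchymal and neural cells (chr18:27932879-28177946, minus strand). In SK-LMS-1 it was at 458, 468, 393, and 412 CPM after DMSO, 456 and 460 CPM after MK-0752, and 428 and 397 CPM after the combination. In SK-UT-1B it was at 4.47 and 3.45 CPM after DMSO and 4.399 and 2.02 CPM after the combination. Every SK-LMS-1 library was above every SK-UT-1B library. The log2FC between lines was 6.77 (SE 0.27, edgeR adjusted p = 3.7e-12) after DMSO and 6.98 (SE 0.28, edgeR adjusted p = 5.3e-12) after the combination, or 109-fold and 126-fold. With CDH1 at 0 to 3 counts and CDH2 at 57 to 161 counts, SK-UT-1B expressed little of these 2 cadherins.

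VIM encodes vimentin, the intermediate filament of mesenchymal cells (chr10:17228241-17237593). It was at 11871, 12855, 12494, and 11786 CPM in the DMSO libraries of SK-LMS-1 and at 4434 and 4330 CPM in SK-UT-1B. After the combination it was at 12589 and 13009 CPM in SK-LMS-1 and 2841 and 4216 CPM in SK-UT-1B. VIM drew more reads than any other gene in all 8 SK-LMS-1 libraries, with 1.10% to 1.24% of their counts, and was ranked 5 to 9 in SK-UT-1B with 0.336% to 0.483%. The lines did not overlap. The log2FC was 1.48 (SE 0.13, edgeR adjusted p = 1.4e-08) after DMSO and 1.86 (SE 0.15, edgeR adjusted p = 3.1e-10) after the combination. The epithelial-like line thus had high VIM as well, 2.80-fold under the other line after DMSO.

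Among the transcription factors, ZEB1 and ZEB2 are paralogous zinc finger repressors of CDH1. ZEB1 (chr10:31318495-31529814) was at 258 and 283 CPM in SK-UT-1B after DMSO. In SK-LMS-1 it was at 243, 225, 212, and 227 CPM. The SK-UT-1B libraries were the higher ones without overlap, yet the log2FC of -0.25 (SE 0.12, 95% interval -0.51 to 0.00) did not pass the test (edgeR adjusted p = 0.106, with 0.0263 to 0.227 over the alternative settings). After the combination it was at 318 and 330 CPM in SK-UT-1B and 269 and 249 CPM in SK-LMS-1 (log2FC -0.32, SE 0.14, edgeR adjusted p = 0.0918).

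ZEB2 (chr2:144364364-144521057, minus strand) was near absent from SK-UT-1B. It had 0 counts in both DMSO libraries and in combination library 3-3, and 24 counts, or 0.656 CPM, in combination library 3-1. In SK-LMS-1 it was at 107, 102, 73.6, and 101 CPM after DMSO, 107 and 86.3 CPM after MK-0752, and 103 and 103 CPM after the combination. After DMSO, ZEB2 was called higher in SK-LMS-1 (edgeR adjusted p = 2.9e-05). Taking 3 counts per SK-UT-1B library as the limit of detection, it was at least 1046-fold higher in the SK-LMS-1 line. That limit covers counting error alone, and uneven coverage could lower this bound and the later ones that use it. After the combination the log2FC was 8.15 (SE 0.73, edgeR adjusted p = 7.7e-05), and 7.29 without library 3-3. Library 3-1 was the only SK-UT-1B library with ZEB2 counts, so no fold change can be fitted to measured counts without it. Hence ZEB1 was present in both lines at similar levels and its paralog in 1 of them.

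The promoters of these paralogs are printed because they are expressed so differently across the lines, and the capitals mark CAGGTG, the E-box that ZEB and SNAI factors bind. Each run covers the 250 bases before a RefSeq transcription start on GRCh38.p14, 5′ to 3′ along the gene. ZEB1 has 7 starts in the RefSeq table, and the start nearest to the annotated gene start was taken. The ZEB1 run is chr10:31318167-31318416 (plus strand) and the ZEB2 run is chr2:144520120-144520369 (minus strand).
ZEB1: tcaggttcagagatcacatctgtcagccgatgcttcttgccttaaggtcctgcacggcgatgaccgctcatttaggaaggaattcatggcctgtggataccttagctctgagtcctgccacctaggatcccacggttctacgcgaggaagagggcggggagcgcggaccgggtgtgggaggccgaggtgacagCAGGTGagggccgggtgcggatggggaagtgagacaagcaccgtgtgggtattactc
ZEB2: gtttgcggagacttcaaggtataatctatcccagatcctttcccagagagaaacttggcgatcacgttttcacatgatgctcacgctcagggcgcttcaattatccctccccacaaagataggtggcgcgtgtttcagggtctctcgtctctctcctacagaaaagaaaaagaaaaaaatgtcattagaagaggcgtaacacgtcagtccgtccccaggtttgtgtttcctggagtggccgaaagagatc

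The search took CAGGTG and its reverse complement CACCTG on either strand. ZEB1 held 1 match, whose first base lies 57 bases before the start. ZEB2, CDH2, and VIM held none in their windows. Of 35116 RefSeq promoters of the same length, 17.5% held at least 1 match. CpG dinucleotides numbered 15 in the ZEB1 run, 12 in ZEB2, 17 in CDH2 and 8 in VIM, against a median of 11. These 4 of the 10 genes were matched in the promoter table.

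SNAI2, or SLUG, a zinc finger repressor of CDH1 (chr8:48917598-48921740, minus strand), had the opposite pattern. In SK-UT-1B it was at 282 and 313 CPM after DMSO and 296 and 231 CPM after the combination. The SK-LMS-1 libraries were at 25.1, 21.3, 26.8, and 36.2 CPM after DMSO and 27.04 and 25.6 CPM after the combination. Every SK-UT-1B library was above every SK-LMS-1 library. The log2FC of SK-LMS-1 over SK-UT-1B was -3.46 (SE 0.16, edgeR adjusted p = 1.0e-12) after DMSO and -3.32 (SE 0.21, edgeR adjusted p = 1.3e-10) after the combination, which is 10.99-fold and 10.01-fold lower.

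TWIST1, a helix-loop-helix factor of mesoderm and neural crest (chr7:19020991-19117636, minus strand), was at 16.1, 15.7, 19.9, and 13.1 CPM in SK-LMS-1 after DMSO. SK-UT-1B had 0 and 13 counts after DMSO, or 0 and 0.345 CPM. After the combination TWIST1 was at 17.0 and 14.6 CPM in SK-LMS-1 and 2.05 and 0.461 CPM in SK-UT-1B. The lines did not overlap. The log2FC was 6.42 (SE 0.90, edgeR adjusted p = 4.1e-05) after DMSO, and 5.48 without library 4-1 of SK-UT-1B. Library 4-2 held its only TWIST1 counts after DMSO. It was 3.63 (SE 0.77, edgeR adjusted p = 0.0020) after the combination, with 2.95 to 5.06 when a library was left out.

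**Figure D2:**
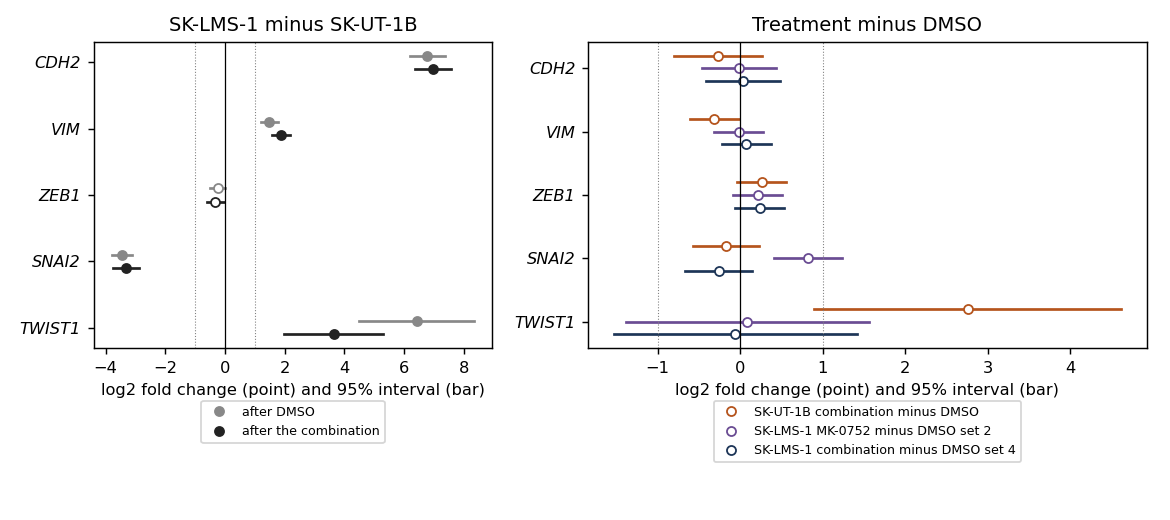
log2FC with 95% intervals for CDH2, VIM, ZEB1, SNAI2, and TWIST1, between the lines (left) and for each treatment over DMSO (right). Filled points passed the call rule, dotted lines mark a log2FC of 1 in either direction, and no treatment point is filled.

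Within each line the genes were also ranked per kilobase of exon, since longer transcripts collect more reads. In the 8 SK-LMS-1 libraries VIM led at 2392 ± 113 CPM per kb (SD), followed by CDH2 at 50.6 ± 3.56, ZEB1 at 28.5 ± 2.85, SNAI2 at 9.29 ± 2.48, TWIST1 at 8.16 ± 0.99, and ZEB2 at 3.74 ± 0.45. The order of SNAI2 and TWIST1 turned between groups, with 7.06 ± 0.82 against 7.97 ± 0.16 in DMSO set 2 and 12.5 ± 2.11 against 8.47 ± 0.064 after MK-0752 (SD, n = 2 each). In the 4 SK-UT-1B libraries the order was VIM at 764 ± 145, SNAI2 at 85.4 ± 10.7, ZEB1 at 34.4 ± 3.81, CDH2 at 0.418 ± 0.13, and TWIST1 at 0.357 ± 0.46. The order of the last pair turned between the group means. After DMSO, CDH2 was at 0.461 ± 0.084 and TWIST1 at 0.086 ± 0.12 (SD, n = 2). After the combination they were at 0.374 ± 0.20 and 0.629 ± 0.56 (SD, n = 2). The higher TWIST1 mean came from library 3-1, at 1.03, against 0.231 in library 3-3. The exon length of ZEB2, 26151 bases over all annotated transcripts, lowers its value on this scale.

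Per kilobase, the lines had a different mix of transition factors. In SK-UT-1B, SNAI2 made up 66.1% ± 4.56 (SD, n = 4) of the sum of ZEB1, ZEB2, SNAI1, SNAI2, TWIST1, and TWIST2, and ZEB1 26.8% ± 4.02. In SK-LMS-1, ZEB1 made up 40.7% ± 2.17 (SD, n = 8), TWIST2 29.1% ± 2.51, SNAI2 13.2% ± 2.704, TWIST1 11.7% ± 1.55, and ZEB2 5.38% ± 0.78. SNAI1, the SNAI2 paralog, had 0 counts in all 8 SK-LMS-1 libraries and 30 to 60 counts in SK-UT-1B. SNAI1 and TWIST2 were added after their values were seen, to complete the families. The per-kilobase ratio of SNAI2 to ZEB1 was 0.249 to 0.420 in SK-LMS-1 and 1.85 to 2.91 in SK-UT-1B, without overlap.

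**Figure D3:**
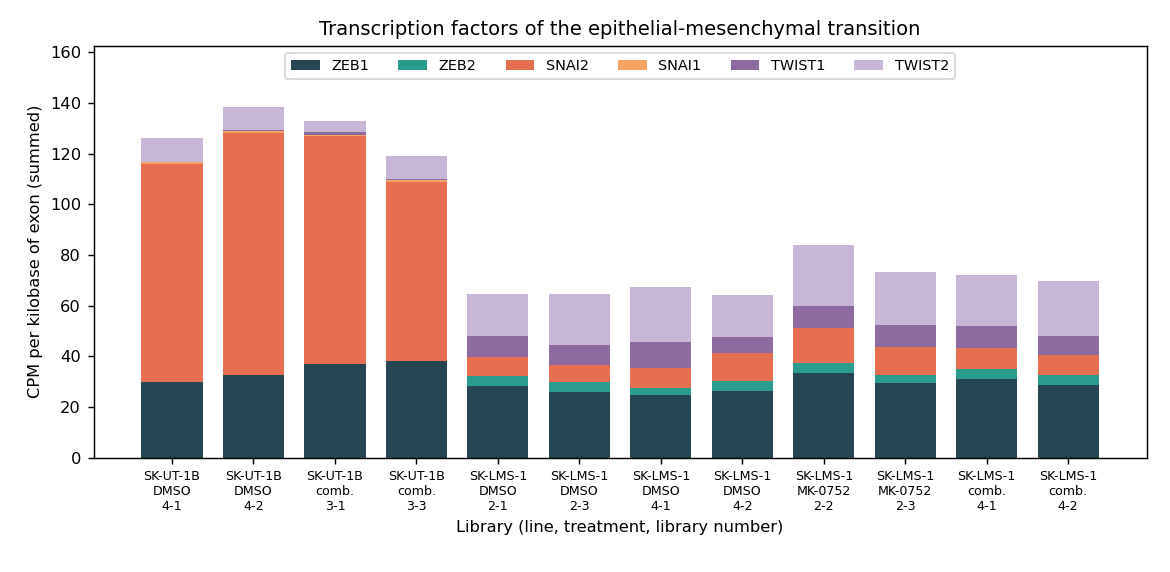
Stacked CPM per kilobase of exon for 6 transcription factors in each of the 12 libraries. SNAI2 is the largest part of all 4 SK-UT-1B bars, and ZEB1 and TWIST2 are the largest parts of all 8 SK-LMS-1 bars.

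The combination in SK-UT-1B left all 10 genes without a call in edgeR, where 0.559% of tested genes were called. At an unadjusted p under 0.05 there were 3, namely ZEB2, TWIST1, and VIM, where all tested genes gave 2214 of 21114, and DESeq2 called 2, ZEB2 and TWIST1. TWIST1 went from 0 and 13 counts to 75 and 13 counts (log2FC 2.76, SE 0.86, edgeR adjusted p = 0.209, with 0.00070 to 0.848 over the alternative settings). ZEB2 went from 0 and 0 counts to 24 and 0 counts (edgeR adjusted p = 0.361). The groups overlapped for ZEB2. For TWIST1 they shared a count of 13 and came close in CPM, at 0.345 and 0.461. The high value was library 3-1 each time, the library that also held the 91 ESRP1 counts. Without library 3-1, the TWIST1 log2FC was 1.25 and ZEB2 had 0 counts in every SK-UT-1B library.

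VIM was at 4434 and 4330 CPM before and at 2841 and 4216 CPM after the combination in SK-UT-1B, with no overlap (log2FC -0.31, SE 0.14, edgeR adjusted p = 0.432). Library 3-1 decided this value as well, since the log2FC was -0.08 without it and -0.63 without library 3-3. SNAI2 had a log2FC of -0.17 (95% interval -0.58 to 0.23), ZEB1 of 0.26 (95% interval -0.04 to 0.56), and CDH2 of -0.27 (95% interval -0.81 to 0.26). Doublings or halvings of SNAI2 and ZEB1 lie outside these intervals. The CDH2 value rested on single libraries, with a log2FC of -0.99 without library 3-1 (edgeR adjusted p = 0.0213) and 0.16 without library 3-3 (edgeR adjusted p = 0.859).

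MK-0752 alone in SK-LMS-1 likewise gave no call among the 10 genes in edgeR or in DESeq2, where edgeR called 0.251% of tested genes. SNAI2 alone had an unadjusted p under 0.05. It was at 45.8 and 36.1 CPM after MK-0752 and at 25.1 and 21.3 CPM in the DMSO libraries of the same first number, with no overlap. The log2FC was 0.82 (SE 0.20, 95% interval 0.41 to 1.23, edgeR adjusted p = 0.0946). The other DMSO libraries were at 26.8 and 36.2 CPM, so over all 4 the groups overlapped, and the log2FC was 0.58 (edgeR adjusted p = 0.251). In DESeq2 the adjusted p was 0.0180 at a log2FC of 0.82, below the fold required for a call. Over the alternative settings that keep every library, the adjusted p in edgeR or DESeq2 was 0.0030 to 0.251. ZEB1 was at 288 and 255 CPM against 243 and 225 CPM (log2FC 0.21, 95% interval -0.09 to 0.51). CDH2 had a 95% interval of -0.47 to 0.44 and VIM of -0.31 to 0.28, both centered at -0.02.

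The combination in SK-LMS-1 gave no call among the 10 genes in edgeR or DESeq2 and no unadjusted p under 0.05, where edgeR called 0.0237% of tested genes. SNAI2 had a log2FC of -0.26 (95% interval -0.67 to 0.15) and ZEB1 of 0.24 (95% interval -0.06 to 0.53). CDH2 lay between -0.42 and 0.49 and VIM between -0.22 and 0.37 on the 95% intervals. The intervals of TWIST1, -1.53 to 1.42, and of ZEB2, -0.89 to 1.38, were wider and do not exclude a doubling.

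Differences between the treatment effects were tested directly. The combination effect differed between the lines for none of the 10 genes in edgeR, where 0.232% of tested genes were called. There were 2 with an unadjusted p under 0.05, TWIST1 (2.81, SE 1.10, edgeR adjusted p = 0.600) and ZEB2 (edgeR adjusted p = 0.638), and DESeq2 called none. In SK-LMS-1 the effect of MK-0752 minus that of the combination was 1.08 for SNAI2 (SE 0.28, edgeR adjusted p = 0.405). It was the only gene of the 10 with an unadjusted p under 0.05 there, and none of the 10 was called in edgeR or DESeq2, where edgeR called 0.0379% of tested genes. Between the DMSO sets of SK-LMS-1 none of the 10 was called in edgeR or DESeq2, where edgeR called 0% of tested genes with 1197 of them at an unadjusted p under 0.05, and SNAI2 was 0.44 higher in set 4 than in set 2 on the log2 scale (SE 0.20, unadjusted p = 0.0352 in edgeR).

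Wider lists put these genes in context. Of 50 further epithelial genes, 33 were tested between the lines after DMSO. SK-LMS-1 was higher in 13, lower in 8, and 12 were not called, where 17.0% of all tested genes were called higher and 14.1% lower. Their median log2FC was 1.92, or 1.65 with the 11 genes at or under 3 counts in a line set to their bound, against 0 for all genes tested. Epithelial genes summed to 805 to 905 CPM in SK-LMS-1 and 427 to 434 CPM in SK-UT-1B after DMSO. The 3 genes of this list with the highest mean in SK-LMS-1 after DMSO were TJP1, KRT18, and KRT8. They made up 673 to 752 CPM of the first sum and 129 to 130.5 CPM of the second. The sum of the other 47 genes was 132 to 164 CPM in SK-LMS-1 and 297 to 305 CPM in SK-UT-1B. Taking out genes by their SK-LMS-1 level lowers the rest in that line, so this turned order decides nothing. Among the 47 are DSG2 and DSP, at 110 and 76.7 CPM in SK-UT-1B. Single genes among the 47 went both ways. By functional subgroups that were formed after their values were seen, all 4 simple keratins were higher in SK-LMS-1, and of 7 tested desmosome and linker genes 4 were lower and 2 higher.

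KRT8 and KRT18, the keratin pair of simple epithelia, were at 103 ± 5.20 and 131 ± 19.0 CPM in SK-LMS-1 (SD, n = 4). KRT8 had 0 counts in every SK-UT-1B library, and its DMSO level in the SK-LMS-1 line was at least 1120-fold higher. KRT18 was at 0.677 ± 0.66 CPM in SK-UT-1B (log2FC 7.67, SE 0.50, edgeR adjusted p = 1.5e-07). TJP1, the tight junction scaffold ZO-1, was at 490 ± 53.8 against 129 ± 0.66 CPM (log2FC 1.92, SE 0.14, edgeR adjusted p = 5.6e-10). EHF, an epithelial ETS factor named after its values were seen, was at 17.8 ± 4.72 CPM in SK-LMS-1 and at 0 counts in SK-UT-1B.

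Desmosome genes went both ways. DSP, desmoplakin, which ties keratin to desmosomes, was at 66.6 and 86.9 CPM in SK-UT-1B after DMSO. In SK-LMS-1 it had 103 counts in library 4-2 and 0 to 5 counts in the other 3 DMSO libraries (log2FC -7.78, SE 1.25, edgeR adjusted p = 0.0040). DSG2, a desmosomal cadherin, was at 110 ± 0.73 CPM (SD, n = 2) in SK-UT-1B and 28.5 ± 3.53 CPM in SK-LMS-1 (log2FC -1.95, SE 0.17, edgeR adjusted p = 1.6e-08). JUP, plakoglobin, was at 26.4 ± 5.26 and 2.73 ± 0.88 CPM (log2FC -3.30, SE 0.41, edgeR adjusted p = 1.5e-06). The 2 that were higher in SK-LMS-1, named after their values were seen, were the plakophilins PKP2, at 87 to 219 counts in its DMSO libraries, and PKP3, at 0 to 244 counts, and both had 0 counts in the SK-UT-1B DMSO libraries.

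Of 44 further mesenchymal genes, all tested, SK-LMS-1 was higher in 27 and lower in 10 after DMSO and 7 were not called, against 17.0% higher and 14.1% lower over all tested genes, with a median log2FC of 2.51. FN1, fibronectin, was at 7449 ± 505 CPM in SK-LMS-1 and 254 ± 24.9 CPM in SK-UT-1B (log2FC 4.87, SE 0.14, edgeR adjusted p = 5.4e-16). NT5E, the surface nucleotidase CD73, was at 2904 ± 245 and 7.21 ± 0.16 CPM (log2FC 8.65, SE 0.76, edgeR adjusted p = 0.00010). CD44, the hyaluronan receptor, was at 2564 ± 162 and 18.1 ± 1.06 CPM (log2FC 7.14, SE 0.16, edgeR adjusted p = 5.0e-17).

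Matrix genes went both ways. COL3A1, a fibrillar collagen, was at 3020 ± 44.7 CPM in SK-UT-1B and 101.5 ± 22.3 CPM in SK-LMS-1 (log2FC -4.91, SE 0.14, edgeR adjusted p = 6.2e-16). VCAN, a matrix proteoglycan, was at 2430 ± 64.6 and 179 ± 23.1 CPM (log2FC -3.77, SE 0.12, edgeR adjusted p = 1.7e-15), and TNC, tenascin C, at 2433 ± 194 and 675 ± 16.7 CPM (log2FC -1.85, SE 0.10, edgeR adjusted p = 1.2e-11). Of 18 matrix genes and matrix enzymes, SK-LMS-1 was higher in 10 and lower in 5. Of 8 further mesenchymal transcription factors, 3 were higher and 4 lower, beside 17.0% higher and 14.1% lower over all tested genes. These subgroups too were formed after their values were seen.

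**Figure D4:**
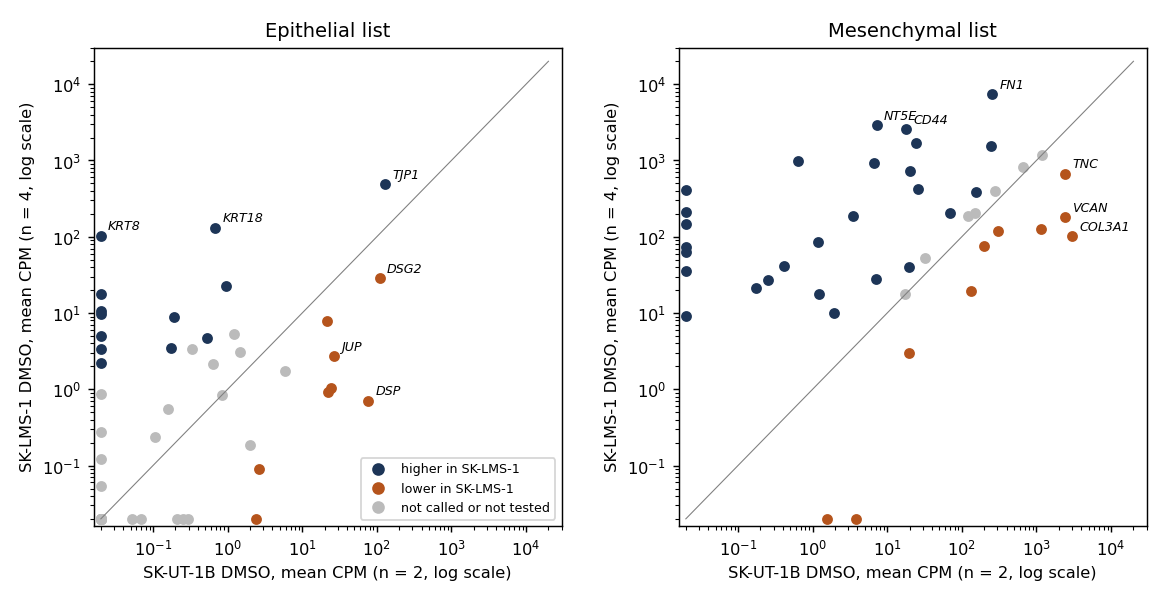
Mean CPM after DMSO in SK-UT-1B (horizontal, n = 2) and SK-LMS-1 (vertical, n = 4) on log axes for 50 epithelial (left) and 44 mesenchymal (right) genes, with values under 0.02 drawn at 0.02 and the diagonal marking equal levels. Each list has genes on both sides of the diagonal, with KRT8 and KRT18 above it and DSP, DSG2, and JUP below it.

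Of 10 cadherins other than CDH1 and CDH2, 7 were tested, and after DMSO 3 were higher in SK-LMS-1, 1 was lower, and 3 were not called, with 31.1% of all tested genes called in this comparison. CDH13, a cadherin anchored by lipid, was at 195 ± 20.7 CPM and CDH4, R-cadherin, at 66.5 ± 6.23 CPM in SK-LMS-1. Neither had a count in SK-UT-1B. With 3 counts as the limit of detection, they were at least 2131-fold and 726-fold higher in the SK-LMS-1 line. CDH11, of mesenchymal cells, was at 17.7 ± 1.31 and 1.23 ± 0.22 CPM (log2FC 3.84, SE 0.87, edgeR adjusted p = 0.0043). After the combination the lines overlapped for CDH11, at 10.2 and 12.1 CPM in SK-LMS-1 and 0.887 and 13.4 CPM in SK-UT-1B. CDH3, named after its values were seen and also in the epithelial list, was low in both lines and lower in SK-LMS-1. Its level was 2.65 ± 0.67 CPM in SK-UT-1B and 0.090 ± 0.11 CPM in SK-LMS-1 after DMSO. After the combination it was 6.58 ± 1.38 and 0.604 ± 0.51 CPM.

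The catenins link cadherins to actin. Of 5, CTNNA1 (389 ± 9.67 against 146 ± 3.85 CPM, log2FC 1.42, SE 0.13, edgeR adjusted p = 1.8e-08) and CTNND2 (24.99 ± 6.28 against 0.303 ± 0.35 CPM, log2FC 6.43, SE 0.70, edgeR adjusted p = 2.8e-06) were higher in SK-LMS-1. The other 3 were not called, and the share called over all tested genes was 31.1%. CTNNB1, beta-catenin, was at 252 ± 18.9 and 257 ± 14.9 CPM.

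TGF-beta signals drive the transition in many epithelia. Of 11 genes of that pathway, after DMSO 5 were higher in SK-LMS-1 and 6 were not called, where all tested genes had 17.0% higher and 14.1% lower. The ligand TGFB1 was at 397 ± 36.2 against 88.6 ± 25.4 CPM (log2FC 2.16, SE 0.18, edgeR adjusted p = 7.2e-09). Its receptor TGFBR2 was at 331 ± 32.1 against 6.02 ± 2.40 CPM (log2FC 5.79, SE 0.23, edgeR adjusted p = 8.4e-14), and the effector SMAD3 at 285 ± 26.3 against 19.6 ± 10.7 CPM (log2FC 3.87, SE 0.34, edgeR adjusted p = 3.7e-06).

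Of 9 smooth muscle markers, 8 were tested, and 6 were higher in SK-LMS-1, 1 lower, and 1 not called, beside 31.1% called over all tested genes. TAGLN, transgelin, which is also in the mesenchymal list, was at 40.9 ± 3.97 and 0.411 ± 0.58 CPM (log2FC 6.52, SE 0.84, edgeR adjusted p = 0.00017), CALD1 had a log2FC of 2.94 (SE 0.15, edgeR adjusted p = 4.8e-12), and SMTN, smoothelin, of 1.47 (SE 0.22, edgeR adjusted p = 2.4e-05). Markers of blood and vessel cells were low. CD14, a monocyte marker, was at 2.90 ± 1.26 CPM and PECAM1, an endothelial marker, at 3.68 ± 1.80 CPM in SK-LMS-1, and both were at 0 counts in SK-UT-1B after DMSO. They were the only called genes of 5 leukocyte and 5 endothelial markers, of which 2 and 3 were tested.

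After the combination, SK-LMS-1 was higher in 10 and lower in 7 epithelial genes and higher in 26 and lower in 9 mesenchymal genes, of 33 and 44 tested, where 15.6% of all tested genes were higher and 9.88% lower. Of the epithelial list, 4 to 6 were lower when a library was left out, and 4 without SK-LMS-1 combination library 4-2.

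Over all lists, 2 genes passed the call rule with a treatment, both with MK-0752 in SK-LMS-1. LOX, given under the other observations, had an edgeR adjusted p under 0.05 there and fell short on the fold alone. GREM1, a secreted antagonist of bone morphogenetic proteins from the mesenchymal list, fell from 44.01 and 39.4 CPM to 11.5 and 8.56 CPM (log2FC -2.06, SE 0.36, edgeR adjusted p = 0.0145). No call remained when any of the 4 libraries was left out, while the log2FC was -2.29 to -1.86. SPINT1, an inhibitor of surface proteases from the epithelial list, fell from 14 and 37 counts to 0 and 0 counts (edgeR adjusted p = 0.0148). No fold is given, because 25.6% and 27.6% of genes expected at 5 to 500 counts were at 0 in these MK-0752 libraries. Its call was lost without MK-0752 library 2-2 (0.205), without MK-0752 library 2-3 (0.245), and without a DMSO library, 2-3 (0.113), all edgeR adjusted p. The combination in SK-LMS-1 had GREM1 at 18.7 and 22.4 CPM against 25.2 and 35.8 CPM in its DMSO libraries, which was not called. No list gene was called after the combination in either line. At an unadjusted p under 0.05 in edgeR, the combination gave 10 of 44 mesenchymal and 3 of 33 epithelial genes in SK-UT-1B, where all tested genes gave 2214 of 21114. The combination gave 5 of 44 and 1 of 33 in SK-LMS-1, against 914 of 21114. MK-0752 alone gave 13 of 44 and 3 of 33 there, against 1354 of 21114.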

How the data were processed

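The authors trimmed single-end reads of stranded, ribosome-depleted libraries with Trim Galore 0.3.7, aligned them to hg38 with STAR 2.7.9a, removed ribosomal RNA, and deposited the reads of each gene as raw counts, without normalization. The gene annotation and the strand setting of the counts are not given in the sources used here. Genes on the other strand share exon bases with all members but EPCAM and ESRP1, and the values of those 8 are uncertain to that extent. At most 1056 counts of such a partner were listed in a library, and the partner of SNAI2 was not matched in the table. Names, coordinates, and exon lengths came from GENCODE, and promoters from RefSeq.

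Counts were tested with edgeR 4.0.16 in R 4.3.3 (TMM, filterByExpr, robust quasi-likelihood F-test, 6 groups of 2 libraries, Benjamini-Hochberg adjustment over 21114 genes). MK-0752 libraries were compared with DMSO set 2 and combination libraries of SK-LMS-1 with DMSO set 4, by the first library number. The lines after DMSO were compared with all 4 SK-LMS-1 libraries. Intervals are 95% intervals from the same fit. The script was tested on simulated data. No libraries were duplicates. The 10 genes and the lists were chosen with earlier results of these data known, and the functional subgroups of the lists after their values were seen. Genes were named by a rule, which takes all 10 genes, list genes called in a treatment, and, for the lines after DMSO, the called genes with the highest mean CPM, up to 6 from the epithelial and mesenchymal lists and 3 from the others. Alternatives were DESeq2 1.42.0, its size factors in edgeR, a filter at 1 count or at a mean of 50 counts, the libraries of a comparison alone, all 4 SK-LMS-1 DMSO libraries as control, a replicate block, and each library left out.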

Additional observations from a re-analysis of the deposited data

Results flagged for a closer look

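Among the 4 SK-LMS-1 DMSO libraries, 1 value lay far from the other 3 for 3 of the 43 genes tested for this. EPCAM was at 0.752 CPM in library 4-2 and at 0 counts in the other 3. DSP was at 2.67 CPM in the same library and at 0.181 CPM or less in the other 3. LSR, which was added after its values were seen, was at 2.92 CPM in library 4-1. The gap exceeded the Dixon limit for 4 values in each. Any gene with counts in only 1 of the 4 libraries passes it, as EPCAM did, so that flag decides nothing. Chance alone passes that limit in about 1 in 20 groups, so about as many flags arise among this many genes by chance. Those tested were 7 of the 10 genes, the list genes named by the rule, and genes added after their values were seen. Genes at 0 counts in all 4 libraries, CDH1, ESRP1, and GRHL2 among them, could not be tested.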

How the results depend on the processing

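The calls of CDH2, VIM, ZEB2, TWIST1, and SNAI2 between the lines kept their direction and side of the threshold under every alternative run, after DMSO and after the combination, so 5 of the 10 genes were called each time. Of the 10 genes, the number called after the combination in SK-UT-1B was 0, but 2 with no filter beyond 1 count, 2 with DESeq2, and 0 to 2 when a library was left out (2 without combination library 3-3, 1 without DMSO library 4-2). The combination effect differed between the lines for 1 of the 10 with no filter beyond 1 count and for 0 to 2 when a library was left out, and the effect of MK-0752 minus that of the combination in SK-LMS-1 for 1, SNAI2, with no filter beyond 1 count. The causes were not tested. Epithelial genes lower in SK-LMS-1 after the combination numbered 4 to 6 when a library was left out.

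With the replicate block, SNAI2 after the combination in SK-UT-1B had a log2FC of 0.023, against -0.17 without it. When a library was left out, CDH2 there ranged from -0.99 to 0.16. For ZEB2 there the fitted log2FC ranged from 0 to 7.43 and the difference of the combination effects from -0.21 to 7.18. With 0 counts in both DMSO libraries these fits have no measured base and give no fold change, and both were lowest without library 3-1. For CDH2, VIM, ZEB2, and TWIST1 after either treatment of SK-LMS-1, log2FC lay between -0.19 and 0.25 over the settings that keep every library, and no setting gave a call. SPINT1 lost its call after MK-0752 with a mean of at least 50 counts (edgeR adjusted p = 0.0561) and with the libraries of the comparison alone (0.499). Among the SK-LMS-1 DMSO set 4, SK-LMS-1 combination, and SK-UT-1B DMSO libraries, those with the same number did not deviate together (correlations of -0.02, -0.01, and -0.04 across 9866 genes, which are not independent), and the other groups were not checked, so the numbers were not taken to pair samples, and the replicate block gave 0 calls among the 10 genes in each treatment comparison. Depth limits EPCAM, ESRP1, and, in SK-UT-1B, ZEB2 and TWIST1, whose counts were under 100 in every library.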

Other observations

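LOX, the enzyme that crosslinks collagen and a gene of the mesenchymal list, was picked out after its values were seen. It had 0 counts in every SK-UT-1B library. SK-LMS-1 after DMSO was at 416 ± 51.2 CPM (SD, n = 4), at least 4538-fold higher with 3 counts as the limit of detection. After MK-0752 its log2FC in SK-LMS-1 was -0.90 (SE 0.15, edgeR adjusted p = 0.0106), short of the fold required for a call. TCF4, a helix-loop-helix transcription factor of the same list, went the other way between the lines. It was at 1141 ± 58.8 CPM in SK-UT-1B (SD, n = 2) and 128 ± 24.4 CPM in SK-LMS-1 after DMSO (log2FC -3.17, SE 0.13, edgeR adjusted p = 1.2e-13), and GSC, a homeobox factor, had 90 to 150 counts in SK-UT-1B and 0 counts in all 8 SK-LMS-1 libraries. LSR, the tricellular junction receptor, was at 22.5 ± 3.45 CPM in SK-UT-1B and 0.928 ± 1.34 CPM in SK-LMS-1 (log2FC -4.90, SE 1.10, edgeR adjusted p = 0.0080).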
